A study of Mus musculus with 6 samples.

Results

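The CCR4-NOT complex is the main cytoplasmic deadenylase of animal cells, and 10 mouse genes for its subunits were examined in oocytes without Zar1. They were taken by name, with Cnot1, Cnot2, Cnot3, Cnot6, Cnot6l, Cnot7, Cnot8, Cnot9, Cnot10 and Cnot11 all found among 53700 gene rows, and all 10 passed the filter on low counts with 16473 genes in all. The data are polyA RNA sequencing of mouse germinal vesicle (GV) oocytes, 10 per pool, with 3 libraries of Zar1 knockout (Zar -/-) oocytes and 3 of wild-type (Zar +/+) oocytes, both on the C57BL/6N strain background and without further treatment in the labels. The labels call the libraries of a genotype biological replicates. They give no age, no account of the deleted part of Zar1 and no animal for a pool, so p-values cover the spread among pools of unknown origin. GV oocytes are fully grown oocytes arrested in meiotic prophase, and ZAR1 is one of their RNA-binding proteins. The comparison asks which subunit mRNAs differed in level when Zar1 was missing.

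CCR4-NOT shortens the poly(A) tails of mRNA and thereby silences them and starts their decay. CNOT1 is the scaffold on which the other subunits assemble, and 2 kinds of nuclease do the work: CCR4-type enzymes, CNOT6 or CNOT6L, and CAF1-type enzymes, CNOT7 or CNOT8. In mouse oocytes maternal mRNA is stable up to the GV stage and is deadenylated and cleared once meiosis resumes, a step in which CNOT6L, CNOT7 and the adaptor BTG4 are known to take part.

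Gene counts summed to between 35066851 and 37946223 in the Zar1 knockout libraries and between 32126555 and 39148833 in the wild-type libraries. Zar1 had 69, 96 and 226 counts in knockout replicates 1, 2 and 3, against 15245, 13612 and 12810 in wild-type replicates 1, 2 and 3. Levels are in CPM, a gene's share of the library total after TMM scaling, so they describe polyA RNA relative to the rest of that library. In pools, fewer oocytes holding an mRNA and less of it per oocyte cannot be told apart. The 15 oocyte markers were all tested and summed to between 21981 and 23878 CPM in knockout and between 19269 and 20649 CPM in wild type, with 9 higher and 2 lower. The 12 granulosa and cumulus markers summed to between 123 and 136 CPM in knockout and between 105 and 116 CPM in wild type, with 2 higher and 1 lower of 8 tested. Among them Nr5a2 was the most abundant, at 77.9 CPM in knockout and 51.8 CPM in wild type. The 8 theca and stroma markers summed to between 1.06 and 2.46 CPM in knockout and between 2.10 and 3.48 CPM in wild type, with 1 lower of 4 tested. Of 8 blood and immune markers Hbb-bs, Hbb-bt, Hba-a1 and Cd3e had no count in any library, and the sum was between 30.2 and 34.0 CPM in knockout and between 24.1 and 26.1 CPM in wild type, mostly from Pecam1 (30.5 CPM in knockout and 24.2 CPM in wild type), with 1 higher of 2 tested. Markers are counted as higher or lower at an adjusted p of 0.05, which 33.4% of all tested genes passed. The part of these markers in the results below was not tested.

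Of the 10 subunit mRNAs, 2 rose without Zar1 and 2 fell, whereas 6 did not pass (edgeR's quasi-likelihood test, Benjamini-Hochberg adjusted p of 0.05 over all tested genes). Over all tested genes 33.4% passed, 14.9% higher and 18.5% lower, so the count of members was close to the background. Cnot6 and Cnot9 fell, and Cnot8 and Cnot10 rose. None of the 4 passed a test against a 1.5-fold change, in which Cnot6 came nearest (edgeR adjusted p = 0.0809). The groups did not overlap in 6 of the 10, against 47.8% of all tested genes. The median log2 fold change of the members was -0.02, beside 0.00745 for all tested genes. Together the members took 0.327 ± 0.00612% of gene counts in knockout and 0.336 ± 0.00226% in wild type (SD, n = 3 each), with knockout replicate 1 inside the wild-type range (exact two-sided permutation p = 0.2, where 0.1 is the smallest that 3 against 3 libraries allow; 0.24 adjusted over 6 such tests). With levels corrected for GC content and length, an alternative chosen after seeing the data, this difference reversed, to 0.343 ± 0.00722% in knockout and 0.321 ± 0.00228% in wild type, with no overlap (exact permutation p = 0.1).

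**Figure D1:**
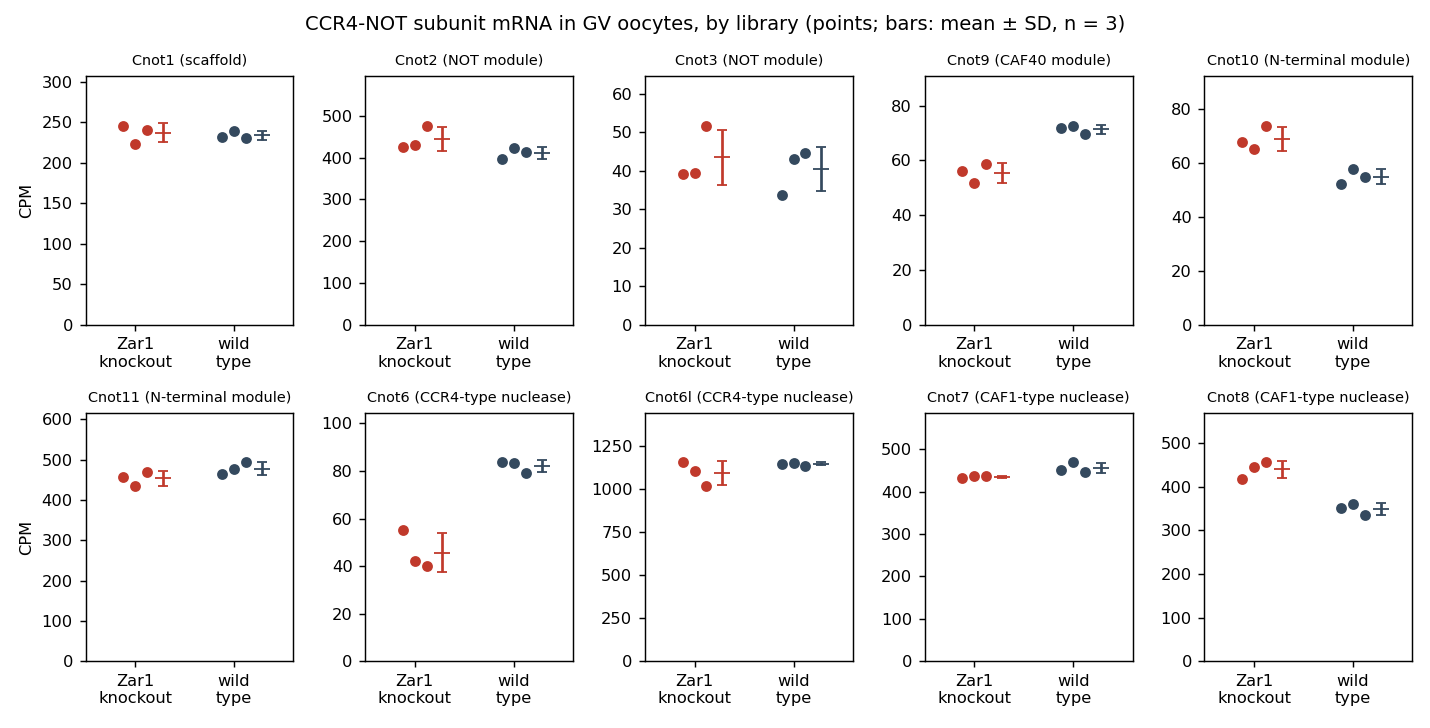
CPM of each subunit mRNA in the 3 Zar1 knockout libraries (left, red) and the 3 wild-type libraries (right, dark), with the mean and SD as bars and each vertical axis starting at 0. Cnot6, Cnot7 and Cnot9 lie lower in every knockout library than in every wild-type library, and Cnot2, Cnot8 and Cnot10 lie higher. Of these, Cnot2 and Cnot7 did not pass the test.

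The scaffold mRNA did not pass the test as counted, and its call depended on the correction for GC content and transcript length, in which a lowess curve is taken out of each library. Cnot1 had 246, 224 and 241 CPM in knockout replicates 1, 2 and 3, against 231, 239 and 230.2 CPM in wild-type replicates 1, 2 and 3. The groups overlapped, and the log2 fold change was 0.02 ± 0.07 (SE), with a 95% interval from -0.14 to 0.18 (edgeR adjusted p = 0.856). With the GC and length correction it was 0.25 ± 0.07 and passed (edgeR adjusted p = 0.021), and with that correction and the replicate number as a block it was 0.25 and did not (edgeR adjusted p = 0.0502).

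CNOT2 and CNOT3 form the NOT module at the C-terminal end of CNOT1, a platform for RNA-binding partners. Cnot2 had 426, 431 and 477 CPM in knockout, against 397, 424 and 413 CPM in wild type. Every knockout library lay above every wild-type library, but the difference did not pass (log2 fold change 0.11 ± 0.07, edgeR adjusted p = 0.258). Cnot2 passed with the GC and length correction (0.28 ± 0.07, edgeR adjusted p = 0.0178), and also with the block added (0.0311). Cnot3 had 39.2, 39.5 and 51.7 CPM in knockout, against 33.8, 42.98 and 44.5 CPM in wild type. Its groups overlapped and it had the widest interval of the 10, from -0.23 to 0.44 (log2 fold change 0.11 ± 0.15, edgeR adjusted p = 0.621). The log2 ratio of Cnot2 to Cnot3 counts was 3.37 ± 0.14 in knockout and 3.36 ± 0.18 in wild type (exact permutation p = 1, adjusted p = 1).

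Cnot9, which encodes the CAF40 subunit that docks peptide motifs of RNA-binding proteins, fell. It had 56.2, 51.6 and 58.8 CPM in knockout, against 71.8, 72.7 and 69.5 CPM in wild type. All knockout libraries were below all wild-type libraries, a log2 fold change of -0.36 ± 0.08 (1.29-fold lower, edgeR adjusted p = 0.0107). Apart from the test against a 1.5-fold change, the call was lost in 1 of 16 alternatives, which joined the replicate block to the GC and length correction (log2 fold change -0.29, edgeR adjusted p = 0.0593). Usp37, a deubiquitinase gene on the opposite strand whose annotated exons cover 3.50% of the exon bases of Cnot9, had 50.3, 43.7 and 59.9 CPM in knockout, against 157, 168 and 155 CPM in wild type (log2 fold change -1.64 ± 0.12, edgeR adjusted p = 3.31e-05). Whether counting used strand is unknown from the labels and headers, and the part of Usp37 reads in the fall of Cnot9 was not tested.

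CNOT10 and CNOT11 bind each other and the N-terminal end of CNOT1. Cnot10 had 68.1, 65.4 and 74.0 CPM in knockout, against 52.3, 57.9 and 54.8 CPM in wild type. Its knockout libraries all lay above the wild-type libraries, and it rose by a log2 fold change of 0.33 ± 0.09 (1.26-fold, edgeR adjusted p = 0.0189). Without wild-type replicate 1 or 3 the rise no longer passed (0.29 and 0.32, edgeR adjusted p = 0.0838 and 0.0767). Cnot11, its partner, had 457, 434 and 471 CPM in knockout, against 464, 477 and 494 CPM in wild type. Knockout replicate 3 lay above wild-type replicate 1, so the groups overlapped, and the difference did not pass (log2 fold change -0.07 ± 0.07, 95% interval -0.22 to 0.07, edgeR adjusted p = 0.423). The log2 ratio of Cnot10 to Cnot11 counts was -2.72 ± 0.04 in knockout and -3.12 ± 0.07 in wild type, with no overlap (exact permutation p = 0.1, the smallest possible; adjusted p = 0.15).

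Of the CCR4-type nuclease genes, Cnot6 fell and Cnot6l did not pass the test. CNOT6 and CNOT6L are close paralogs that carry a leucine-rich repeat, by which they bind the CAF1-type subunit, and an endonuclease-exonuclease-phosphatase domain. Cnot6 had 55.0, 42.3 and 39.9 CPM in knockout, against 83.6, 83.2 and 79.0 CPM in wild type. It was lower in every knockout library, with a wider spread there (45.7 ± 8.13 CPM) than in wild type (81.9 ± 2.56 CPM; SD, n = 3 each). It fell by 0.84 ± 0.12 on the log2 scale, 1.79-fold, the largest change of the 10 (edgeR adjusted p = 0.00111). With the GC and length correction the log2 fold change was -0.54 ± 0.12 (edgeR adjusted p = 0.0109). Cnot6l, the most abundant subunit mRNA in CPM, had 1153, 1104 and 1017 CPM in knockout, against 1147, 1151 and 1134 CPM in wild type. Its highest value was in knockout replicate 1 and its lowest in replicate 3, so the groups overlapped, and the difference did not pass (log2 fold change -0.07 ± 0.07, 95% interval -0.22 to 0.08, edgeR adjusted p = 0.475). Its direction reversed with the GC and length correction (log2 fold change 0.27 ± 0.07, edgeR adjusted p = 0.0165, and 0.0294 with the block added).

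Per kilobase of annotated exon, Cnot6l made up 93.1%, 94.4% and 94.2% of the pair's mRNA in knockout, against 89.8%, 89.9% and 90.2% in wild type. Every knockout library was above every wild-type library (mean 93.9 ± 0.709% in knockout and 90.0 ± 0.221% in wild type, SD, n = 3 each, exact two-sided permutation p = 0.1, the smallest possible; adjusted p = 0.15). A share within a library does not depend on the scaling factors. The difference was 4.10 percentage points with the GC and length correction, beside 3.94 without it.

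Of the CAF1-type nuclease genes, Cnot8 rose and Cnot7 did not pass the test. CNOT7 and CNOT8 are the DEDD-type exonucleases of the complex. Cnot8 had 418, 445 and 456 CPM in knockout, against 352, 359.9 and 335 CPM in wild type. All knockout libraries lay above all wild-type libraries, and Cnot8 rose by a log2 fold change of 0.33 ± 0.07 (1.26-fold, edgeR adjusted p = 0.00558). Cnot7 had 431, 436 and 436 CPM in knockout, against 452, 469 and 446 CPM in wild type. Its knockout libraries were all below the wild-type libraries and varied by only 0.678% (coefficient of variation), and the difference did not pass (log2 fold change -0.07 ± 0.06, 95% interval -0.21 to 0.07, edgeR adjusted p = 0.429). With the GC and length correction the log2 fold change of Cnot8 was 0.37 (edgeR adjusted p = 0.00418). Cnot7 reversed to 0.18 there, short of the threshold (edgeR adjusted p = 0.0544).

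As a share of the pair per kilobase, Cnot7 took 31.8%, 30.8% and 30.2% in knockout, against 36.8%, 37.1% and 37.6% in wild type. No library crossed over (mean 30.9 ± 0.817% in knockout and 37.2 ± 0.425% in wild type, SD, n = 3 each, exact two-sided permutation p = 0.1, the smallest possible; adjusted p = 0.15). The size of the share depended on the length used. Per kilobase of the longest coding transcript, Cnot7 stood at 146 and Cnot8 at 209 CPM per kilobase in knockout. In wild type they stood at 153 and 166. With that length the Cnot7 share differed by -6.85 percentage points, knockout minus wild type. Without length scaling the 2 mRNAs stood almost level in knockout, with a log2 ratio of Cnot8 to Cnot7 counts of 0.02 ± 0.06, whereas in wild type it was -0.38 ± 0.03. After the GC and length correction the Cnot7 share was 32.5 ± 1.02% in knockout and 35.5 ± 0.362% in wild type, still without overlap. The difference was then -3.05 percentage points, beside -6.23 without the correction, and that in the log2 ratio of Cnot8 to Cnot7 was 0.20, beside 0.40.

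Adding the nuclease mRNAs by type, the CCR4-type sum was 113 ± 7.78 CPM per kilobase in knockout and 123 ± 1.21 in wild type, and the CAF1-type sum was 241 ± 7.81 in knockout and 211 ± 6.74 in wild type. Neither sum overlapped between the groups. The difference in the CCR4-type sum reversed with the GC and length correction, to 126 ± 9.47 in knockout and 109 ± 0.898 in wild type, whereas the CAF1-type sum stayed higher in knockout, at 248 ± 10.9 against 201 ± 6.36 in wild type. The ratio of CCR4-type to CAF1-type mRNA was 0.516, 0.465 and 0.4224 in knockout, against 0.587, 0.572 and 0.599 in wild type. Each knockout library was lower than each wild-type library (exact two-sided permutation p = 0.1, the smallest possible; adjusted p = 0.15). Knockout minus wild type, this ratio differed by -0.118 per kilobase of annotated exon and by -0.0818 per kilobase of the longest coding transcript. After the GC and length correction the ratio was 0.508 ± 0.0603 in knockout and 0.544 ± 0.0129 in wild type, and the groups overlapped (exact permutation p = 0.5).

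**Figure D2:**
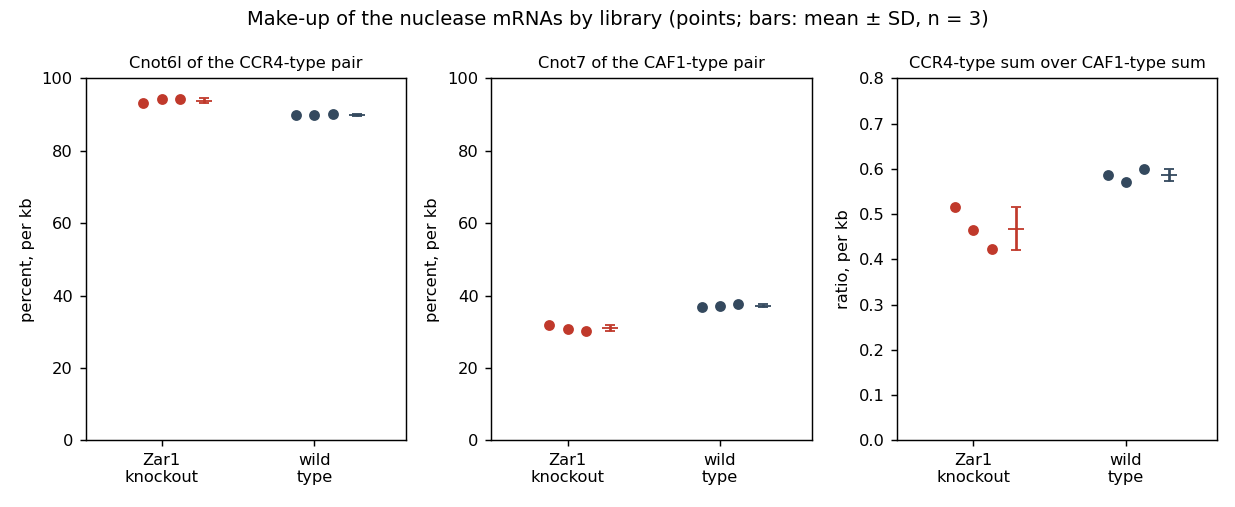
Per library, the share of Cnot6l in Cnot6 plus Cnot6l, the share of Cnot7 in Cnot7 plus Cnot8, and the ratio of CCR4-type to CAF1-type mRNA, all per kilobase of annotated exon and without the GC and length correction, with Zar1 knockout left and wild type right and the mean and SD beside the points. The share of Cnot6l is 93.9% in knockout and 90.0% in wild type, that of Cnot7 is 30.9% in knockout and 37.2% in wild type, and the ratio is 0.468 in knockout and 0.586 in wild type.

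These shares rest on reads that can be told apart between paralogs, so coding sequence of each pair is shown around the longest stretch that the 2 have in common. Sequences are from GENCODE M21 transcripts (GRCm38), 5′ to 3′, and that stretch, found in the aligned coding sequences, has 20 bases in both pairs. Capitals mark bases that differ between the 2 paralogs.
Cnot6: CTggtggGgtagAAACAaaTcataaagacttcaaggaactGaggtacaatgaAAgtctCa
Cnot6l: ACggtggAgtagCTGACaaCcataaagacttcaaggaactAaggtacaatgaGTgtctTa
Cnot7: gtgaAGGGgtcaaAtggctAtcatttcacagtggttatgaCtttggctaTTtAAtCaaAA
Cnot8: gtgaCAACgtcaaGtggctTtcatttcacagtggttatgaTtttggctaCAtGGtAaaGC
The windows hold 13 differences for Cnot6 and Cnot6l, whose coding sequences were 73.4% identical, and 14 for Cnot7 and Cnot8, which were 72.3% identical. The Cnot6 window starts at coding base 1265 and that of Cnot6l at 1259, and both windows of the CAF1-type pair start at coding base 443, counted from the first base of the start codon. Cnot6 and Cnot6l lie on chromosomes 11 and 5, and Cnot7 and Cnot8 on chromosomes 8 and 11.

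Of all 50-base stretches in the annotated transcripts of a member, none of Cnot6l or Cnot11 occurred in another gene in either orientation. The share was 0.812% for Cnot6, 2.76% for Cnot7 and 7.82% for Cnot8, whose main partner was the processed pseudogene Gm18860. It was highest for Cnot3, at 13.5%, mainly with the processed pseudogene Gm9207, and 4.76% for Cnot1, mainly with the processed pseudogene Gm6158. Gm18860 itself had between 26 and 31 counts in knockout and between 15 and 30 in wild type, at most 0.212% of the counts of Cnot8. Gm9207 held up to 6.40% as many counts as Cnot3. Rtkn2 had up to 30.1% as many counts as Cnot6, and Usp37 up to 231% as many as Cnot9, which shared 2.196% of its stretches. Usp37 lies on the opposite strand, so these stretches include its exon overlap with Cnot9. Gm6158 held up to 2.97% as many counts as Cnot1. Other partners held at most 0.522% (Zdhhc2, of Cnot7), 0.591% (5330438D12Rik, of Cnot2) and 0.686% (Gm9776, of Cnot10). The part of such partners in the members' counts was not tested.

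Set against each other per kilobase of annotated exon, the subunit mRNAs fell into a high and a low set in both genotypes. In knockout Cnot8 (167 ± 7.34 CPM per kilobase), Cnot11 (129 ± 5.23), Cnot2 (109 ± 6.84), Cnot6l (106 ± 6.70) and Cnot7 (74.6 ± 0.506) made up the high set. In wild type the same 5 stood at 132 ± 4.85 for Cnot8, 136 ± 4.30 for Cnot11, 101 ± 3.41 for Cnot2, 111 ± 0.834 for Cnot6l and 78.2 ± 2.05 for Cnot7. The other 5 lay between 6.10 and 14.5 CPM per kilobase in knockout and between 5.67 and 18.7 in wild type. The scaffold Cnot1 was in the low set, at 13.8 ± 0.678 in knockout and 13.6 ± 0.293 in wild type.

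Cnot8 led the order in knockout without overlap with Cnot11, whereas in wild type Cnot11 and Cnot8 overlapped at the top. Next in the knockout order, Cnot2 and Cnot6l overlapped, as did Cnot9 and Cnot1, and Cnot6 and Cnot3. In wild type no other neighbours overlapped, and Cnot6 stood above Cnot10 (12.4 ± 0.387 and 8.31 ± 0.425 CPM per kilobase). The order of that pair was the other way in knockout, with Cnot6 at 6.92 ± 1.23 and Cnot10 at 10.4 ± 0.669. Cnot6 lay above 64.3% of 12940 protein-coding genes tested in knockout and above 74.3% in wild type, and Cnot8 above 97.8% in knockout and 97.3% in wild type.

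Annotated exons can include introns that some transcripts retain, so the order was repeated with the longest coding transcript of each gene. The same 5 mRNAs stayed in the high set, from 127 to 209 CPM per kilobase in knockout and from 134 to 166 in wild type. The low set lay between 7.97 and 28.2 in knockout and between 14.3 and 27.8 in wild type. Cnot8 was then first in both genotypes, and neighbours within the sets changed places. Cnot10 lay above Cnot6 in both genotypes, so the order of that pair no longer differed between them. Their levels were 24.2 and 7.97 CPM per kilobase in knockout and 19.3 and 14.3 in wild type. Cnot6 came last without overlap in knockout, and overlapped Cnot3 at the bottom in wild type.

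**Figure D3:**
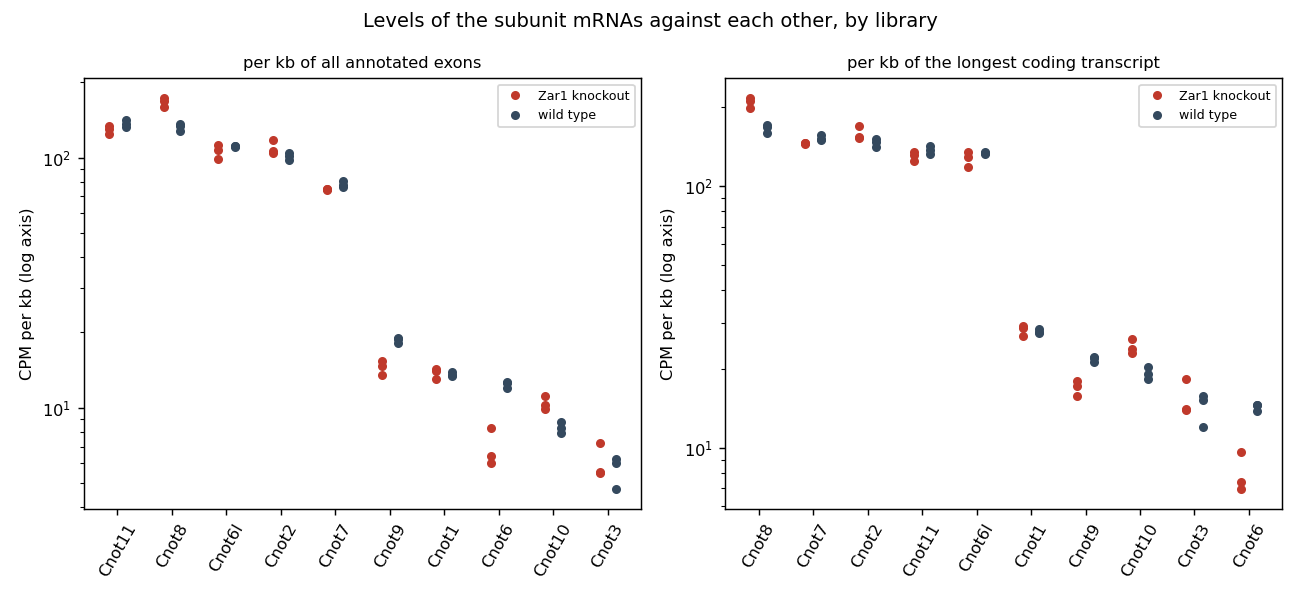
Levels of the 10 subunit mRNAs per library in CPM per kilobase on a log axis, for annotated exons (left) and for the longest coding transcript (right), with Zar1 knockout in red left of wild type in dark, genes ordered by the wild-type mean. In both panels Cnot2, Cnot6l, Cnot7, Cnot8 and Cnot11 form an upper set and Cnot6 shows the largest gap between the genotypes.

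**Figure D4:**
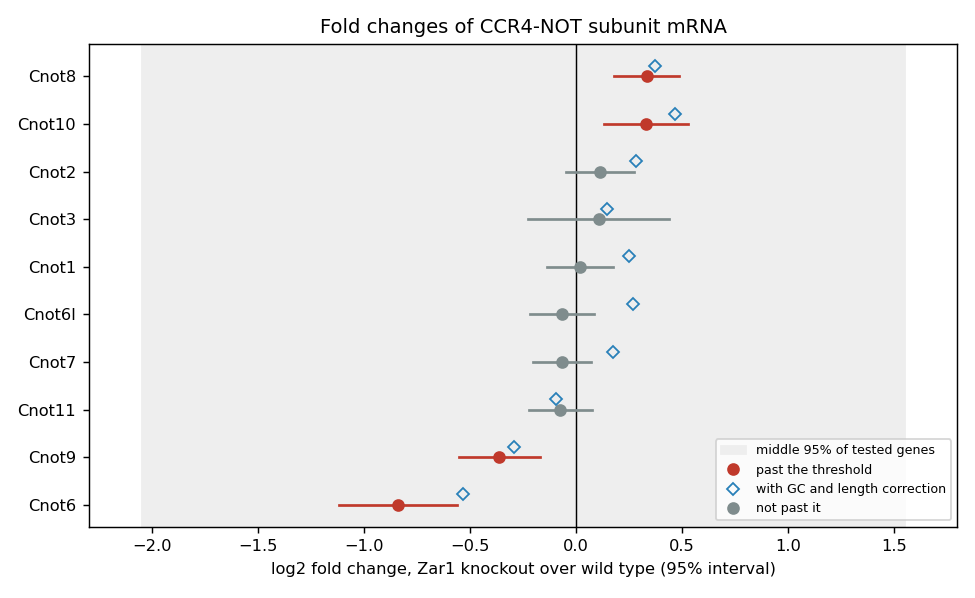
Log2 fold change, Zar1 knockout over wild type, of each subunit mRNA with its 95% interval, in red where the adjusted p is under 0.05, with open diamonds for the GC and length correction and grey shading for the middle 95% of tested genes. All 10 lie inside the shaded range from -2.05 to 1.55, and the corrected values of Cnot6l and Cnot7 lie on the other side of 0.

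The GC and length correction shifted Cnot6l, Cnot6 and Cnot7 most, the 3 members with the lowest GC content. Transcript GC content was 37.6% for Cnot6l, 38.2% for Cnot7 and 39.8% for Cnot6, against 48.4% for Cnot10 and 51.8% for Cnot11. Cnot1, at 45.8% GC, also moved, from 0.02 to 0.25. Cnot6l and Cnot1 have the longest transcripts of the 10, at 8564 and 8390 bases. The correction covers GC content and length, and their parts were not tested apart. With the correction 5 members were higher and 2 lower, with Cnot1, Cnot2 and Cnot6l joining Cnot8 and Cnot10. With the block added, Cnot1 and Cnot9 no longer passed. Cnot6 and Cnot9 stayed lower with the correction alone. The call of Cnot6, and likewise that of Cnot8, held in 16 of 16 alternatives other than the test against a 1.5-fold change, that of Cnot9 in 15 and that of Cnot10 in 14.

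Cytoplasmic polyadenylation elements, bound by CPEB1, time the translation of stored oocyte mRNAs, so the last 200 bases of each member's annotated 3′ UTR were searched for TTTTAT or TTTTAAT on the mRNA strand. An ending could be searched for 9 members, since the annotated transcripts of Cnot8 are marked incomplete at the 3′ end. Cnot1 and Cnot3 held a match, and 28.5% of 17521 protein-coding genes did. These sites are shown with the motif in capitals, from GENCODE M21 transcripts, on chromosomes 8 and 7.
Cnot1: aagatgtattgaTTTTATatatgtgagtac
Cnot3: atgaataaatagTTTTATatgacggctggc
The motif began 64 bases from the annotated end of Cnot1 and 19 bases from that of Cnot3, and the levels of both mRNAs did not pass the test. The ends used in oocytes may differ from the annotated ones.

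Outside the complex, 4 lists of pathway genes were read from the same fit. Of 26 genes for proteins that recruit CCR4-NOT to mRNA, 23 were tested, with 2 higher, 10 lower and 11 not passing, beside 33.4% called among all genes. Their median log2 fold change was -0.17. Tnrc6b, a GW182 protein of microRNA silencing, fell to 45.0 ± 3.46 CPM in knockout, against 102 ± 8.86 CPM in wild type (log2 fold change -1.18 ± 0.10, edgeR adjusted p = 6.34e-05). Nanos1, a germ cell repressor that binds CNOT1, had 20.1 ± 2.28 CPM in knockout and 51.1 ± 2.6995 CPM in wild type (-1.35 ± 0.11, edgeR adjusted p = 6.78e-05). Samd4, a Smaug protein, had 5.68 ± 0.588 CPM in knockout and 14.2 ± 2.13 CPM in wild type (-1.32 ± 0.17, edgeR adjusted p = 0.000592). Rc3h1, which encodes Roquin-1, a binder of stem-loops in mRNA, had 23.8 ± 3.87 CPM in knockout and 48.5 ± 5.73 CPM in wild type (-1.03 ± 0.14, edgeR adjusted p = 0.000838). All 4 fell without overlap between the groups, but they were picked for the smallest adjusted p of the list. Over all tested genes 47.8% did not overlap. Zfp36l2, Tnrc6a, Btg2 and Bicc1 were among the other members that fell, and Tob2 and Samd4b rose. Btg4, named here after its values were seen, had 2032 CPM in knockout and 1970.3 CPM in wild type and did not pass (log2 fold change 0.04 ± 0.07, edgeR adjusted p = 0.681).

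Of 11 genes for other deadenylases, related nucleases and loosely attached partners, 1 rose, 2 fell and 8 did not pass, with a median log2 fold change of -0.04. The share called was 27.3%, near the 33.4% of all tested genes. Noct, of the same nuclease family as the CCR4-type subunits, had 886, 907 and 951 CPM in knockout, against 729, 775 and 775 CPM in wild type (log2 fold change 0.27 ± 0.06, edgeR adjusted p = 0.0114, and 0.0557 without wild-type replicate 1). Angel2, also of that family, had 748 ± 43.2 CPM in knockout and 884 ± 58.4 CPM in wild type (-0.24 ± 0.08, edgeR adjusted p = 0.0358), a call lost with RLE factors (0.0536), upper-quartile factors, the GC and length correction (0.343) or without knockout replicate 1 or 2 or wild-type replicate 2 or 3. Pan3, of the PAN2-PAN3 deadenylase, had 49.6 ± 1.86 CPM in knockout and 95.3 ± 4.83 CPM in wild type (-0.94 ± 0.08, edgeR adjusted p = 7.45e-05). Cnot4, an E3 ligase gene named after its values were seen, had a log2 fold change of 0.08 ± 0.08 (edgeR adjusted p = 0.461).

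Decapping and repression partners numbered 16, of which 3 rose, 3 fell and 10 did not pass, with a median of 0.09. The share called was 37.5%, near the 33.4% of all tested genes. Lsm1, of the LSM ring that binds deadenylated ends, rose to 271 ± 28.9 CPM in knockout, against 176 ± 8.62 CPM in wild type (log2 fold change 0.62 ± 0.09, edgeR adjusted p = 0.00108). Xrn1, the 5′ to 3′ exonuclease, fell to 17.4 ± 1.84 CPM in knockout, against 28.3 ± 1.77 CPM in wild type (-0.70 ± 0.12, edgeR adjusted p = 0.00272). The call of Xrn1 was lost with the replicate block and the GC and length correction together (edgeR adjusted p = 0.0521). Dcp2 and Dcp1b, of the decapping enzyme, fell with log2 fold changes of -1.45 and -3.04. Dcp1b was scarce, at 0.642 CPM in knockout and 5.31 CPM in wild type. Its far more abundant paralog Dcp1a, named after its values were seen, had 2563 CPM in knockout and 2609 CPM in wild type. Dcp1a did not pass (log2 fold change -0.03 ± 0.09, edgeR adjusted p = 0.85).

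Among poly(A)-binding proteins and tail-extending enzymes 15 of 17 were tested, of which 3 rose, 4 fell and 8 did not pass, with a median of -0.26. The share called was 46.7%, beside 33.4% of all tested genes. Pabpc1, the main cytoplasmic poly(A)-binding protein of somatic cells, had 169.7, 144 and 158 CPM in knockout, against 41.2, 26.2 and 25.6 CPM in wild type. The groups lay far apart (log2 fold change 2.34 ± 0.18, edgeR adjusted p = 4.5e-05). Tent5d, a noncanonical poly(A) polymerase gene, fell to 0.872 ± 0.0688 CPM in knockout, against 2.93 ± 0.616 CPM in wild type, and Tent5c of the same family had 1364 ± 58.8 CPM in knockout and 1770.01 ± 88.6 CPM in wild type (-0.38 ± 0.07, edgeR adjusted p = 0.00289). Papolg, a nuclear poly(A) polymerase, had 73.3 ± 6.00 CPM in knockout and 103 ± 1.98 CPM in wild type (-0.49 ± 0.08, edgeR adjusted p = 0.00253), a call lost with the replicate block and the GC and length correction together (0.0782).

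**Figure D5:**
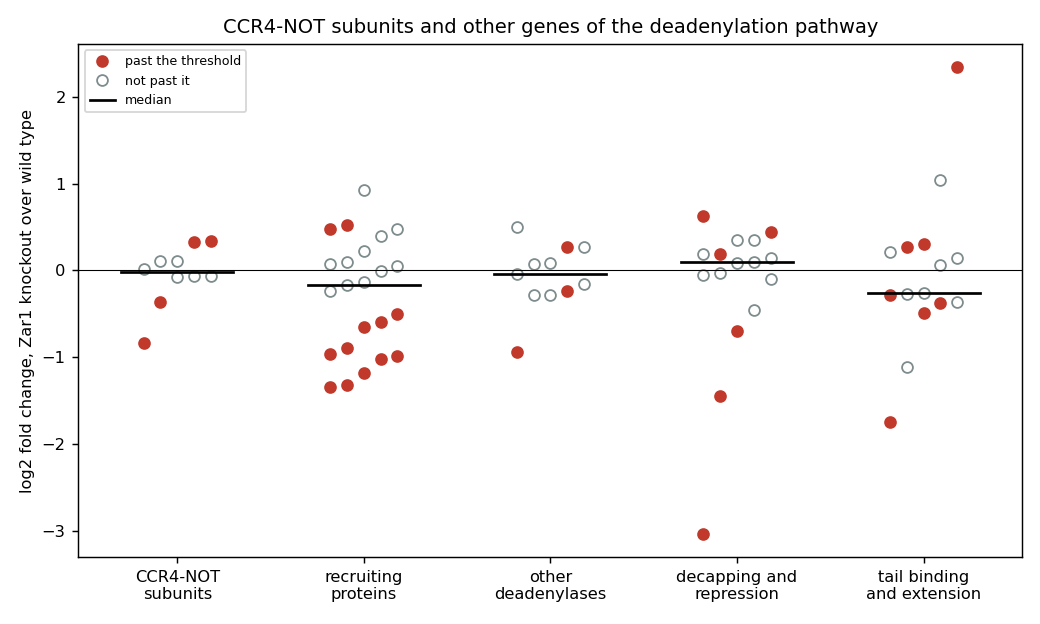
Log2 fold change, Zar1 knockout over wild type, of each tested gene in 5 lists, filled red where the adjusted p is under 0.05 and open where it is not, with a bar at each list's median. The subunits of CCR4-NOT span -0.84 to 0.33, a narrower range than the recruiting proteins, a longer list that includes genes with few counts. Of its 23 tested genes 10 fell, beside 18.5% lower among all tested genes.

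The genes nearest to Cnot6 in their pattern over the 6 libraries were Tmem147, 4933434E20Rik and Gmnn. Their Euclidean distances on log2 CPM centred on each gene were 0.136, 0.14 and 0.149, where the median over 12140 candidates was 1.26. Gmnn, the inhibitor of replication licensing geminin, had a log2 fold change of -0.90 ± 0.11, Tmem147 of -0.81 ± 0.14 and 4933434E20Rik of -0.86 ± 0.17. Such likeness includes the difference between the genotypes, which was not removed before the distances were taken.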

How the data were processed

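The authors deposited unnormalized counts of reads for each gene and library. The submitters' processing notes name HTSeq 0.13.5, STAR 2.7.8a, cutadapt 2.8, bcl2fastq 2.20.0.422 and build mm39, and the labels' protocols a QIAseq FX kit for single cells. Annotation release, strandedness of counting and read filters are unknown from these. The 5 summary rows entered neither library sizes nor tests. Of all reads in a file they held between 4.84% and 5.70% outside genes, between 13.9% and 15.0% with more than 1 alignment and between 4.21% and 4.42% in more than 1 gene. Symbols were matched for 52093 of 53700 rows, and all 123 list entries were found. Tests ran in R 4.3.3 with edgeR 4.0.16 (two-sided glmQLFTest after glmQLFit, filterByExpr and TMM, with genotype as the term); an SE is the absolute log2 fold change over the square root of F. The steps were tested on simulated data. Pairs of libraries of 1 genotype had chi-square to degrees of freedom ratios between 12.8 and 39.9, so none was counted as a duplicate. Exact permutation tests used scipy 1.17.1. Lengths, GC content and transcript sequences are from GENCODE M21 on GRCm38, not mm39, so no coordinates are printed.

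The members and lists were chosen with earlier results of these data known. Named genes are Zar1, the 10 members, up to 4 called genes of each list with the smallest adjusted p (or the 2 lowest p-values if fewer than 2 were called) and the 3 genes nearest to the member with the smallest adjusted p, among those with a mean of at least 50 counts; other genes were named after their values were seen. The ratio of nuclease types and the ratios of Cnot10 to Cnot11 and Cnot2 to Cnot3 were chosen after seeing the data. Tried as alternatives were upper-quartile, RLE and no factors, no filter and a mean of 1 CPM, DESeq2 1.42.0, limma-voom (limma 3.58.1), the replicate block, a lowess correction for GC content and length (values for 99.7% of tested genes), both together, a test against a 1.5-fold change, and leaving out each library. Corrected levels for the shares, sums and ratios, and all alternatives for the sums and the ratios, were added after seeing the data.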

Additional observations from a re-analysis of the deposited data

How the results depend on the processing

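Between 2 and 5 members were higher and 1 to 2 lower in the alternatives that change scaling, filter, tool, block or correction. With the GC and length correction 5 members were higher, and with the replicate block and that correction 4 were higher and 1 lower. Against a 1.5-fold change 0 were higher and 0 lower by edgeR, where the test against no change had 2 of each and DESeq2 and limma-voom 2 of each; the threshold itself is then wider. Leaving out 1 library gave 1 to 2 members higher (1 without wild-type replicate 1 or 3) and 2 to 2 lower. Over all genes, leaving out 1 library gave between 1541 and 2509 higher, the lowest without wild-type replicate 3, beside 2448 with all. Among members short of the threshold, the log2 fold change of Cnot1 reversed to -0.016 with library sizes alone, and that of Cnot3 to -0.039 without knockout replicate 3 and to -0.016 without wild-type replicate 1, in a range of -0.039 to 0.19 when 1 library was left out. Cnot6l reversed to 0.27 and Cnot7 to 0.18 with the GC and length correction, and to 0.27 and 0.18 with the replicate block and that correction. The cause of these changes was not tested. With the GC and length correction, chosen for the shares, sums and ratios after seeing the data, the difference in the members' share of counts reversed to 0.0220 percentage points and that in the CCR4-type sum to 16.6 CPM per kilobase, and the ratio of CCR4-type to CAF1-type mRNA differed by -0.0353, beside -0.118 without it. Leaving out 1 library gave -0.142 to -0.0949 for that ratio, -14.2 to -6.49 for the CCR4-type sum (the smallest difference without knockout replicate 3) and -0.063 to 0.11 for the log2 ratio of Cnot2 to Cnot3, which was 0.0079 with all and reversed without knockout replicate 1 (-0.031) or 2 (-0.034) and without wild-type replicate 2 (-0.019) or 3 (-0.063). The Cnot6l and Cnot7 shares kept their direction in every alternative run, with the Cnot6l share 3.71 to 4.35 and the Cnot7 share -6.67 to -5.87 percentage points apart, knockout minus wild type, when 1 library was left out. Without length scaling these shares differed by 2.68 and -6.91 percentage points, and with the longest coding transcript by 3.80 and -6.85. Their exact tests could not pass the threshold in any setting.

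The replicate numbers showed no pairing of the libraries. Same-numbered knockout and wild-type libraries had correlations of their deviations of -0.00898, -0.0420 and -0.0252, and no library correlated best with its own number. The labels do not say whether a number marks a shared animal or day, and so few libraries cannot settle it. The replicate block alone gave 2078 genes higher and 2760 lower, and 2 members higher and 2 lower. With the replicate block, permuted within numbers, the 3 share differences of -0.0088, 3.94 and -6.23 percentage points had exact p = 0.25, the smallest that 3 pairs allow.

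Of the pathway lists, the number of recruiting genes that fell lay between 8 and 11 and the number of decapping and repression genes that rose between 1 and 5. At these depths Cnot3, the member with the lowest mean count, had at least 1360 counts per library. What limits its precision was not tested.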
